A study of Homo sapiens with 4 samples.

Results

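The noncoding small nucleolar RNA (snoRNA) host genes SNHG1, SNHG5, SNHG6, SNHG8, SNHG12, SNHG15, SNHG16, GAS5, ZFAS1 and DANCR were taken by gene name from the RNA immunoprecipitation sequencing (RIP-seq) of KIAA1429 in HCCLM3 cells, a human hepatocellular carcinoma (HCC) line. Of these 10 genes, 8 were listed, with 38 of the 34975 listed transcripts and among 13300 listed gene names, and SNHG12 and ZFAS1 were not analysed here. In RIP-seq, RNAs that come down with a protein are recovered from a cell lysate with an antibody and sequenced, and normal IgG gives the background. The 4 libraries comprised 2 replicates precipitated with the KIAA1429 antibody (KIAA1429 RIP) and 2 with normal IgG (IgG RIP), all from the same cell line with no other treatment given in the labels. The values were FPKM, a level per transcript length and per library size, so levels may be compared between genes. A gene total is the sum of the FPKM values of the listed transcripts of a gene name.

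Small nucleolar RNAs guide the chemical modification of other RNAs, ribosomal RNA above all, with box C/D snoRNAs directing 2′-O-methylation and box H/ACA snoRNAs directing pseudouridylation. Most human snoRNAs are cut out of introns of a host gene, and in the genes described here the spliced exons that remain form a long noncoding RNA with little coding capacity. Several of these spliced RNAs are translated for a short stretch and then degraded by nonsense-mediated decay, and many snoRNA host genes begin with a run of pyrimidines of the kind found in ribosomal protein genes. KIAA1429, whose gene is listed as VIRMA, is a scaffold of the N6-methyladenosine (m6A) writer complex, and the comparison asked how much of each host RNA came down with it. The libraries were made from poly(A) RNA and no listed transcript was of a snoRNA type. The values are therefore those of host transcripts, and no snoRNA had a value of its own. Of the 38 listed host transcripts, 11 keep an intron by the annotation, SNHG16-202 and SNHG8-204 among them. Whether reads within kept introns came from snoRNA sequence was not tested.

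The libraries held the RNA of liver cancer cells. All 9 hepatocyte and hepatoma markers looked for were listed, with summed levels from 399 to 487 FPKM per library, and the 4 epithelial markers summed to 1290 to 1712 FPKM, led by KRT18, a keratin of simple epithelia, at 820 to 1048 FPKM. Of 7 leukocyte, endothelial and stromal markers, 3 were listed (CD68, COL3A1 and ACTA2), with sums from 59.4 to 103 FPKM. VIRMA itself had 18.0 and 10.01 FPKM in IgG RIP, against 18.2 and 11.6 FPKM in KIAA1429 RIP, with overlapping groups, which describes its messenger RNA and does not check the precipitation of the protein. The FPKM values summed to between 295573 and 340300 per library, between 26.6% and 32.2% of the listed transcripts were at 0 in a library, and the read depth is unknown.

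The 8 listed genes contain different numbers of snoRNA genes within their RefSeq bounds. GAS5, first described as a transcript that accumulates in growth-arrested cells, holds 11 of them (10 box C/D and SNORA103), and SNHG1 holds 9, of which 8 are named box C/D snoRNAs. SNHG16 holds SNORD1A, SNORD1B and SNORD1C, and SNHG5 holds SNORD50A and SNORD50B. The remaining genes hold 1 each, namely SNORD87 in SNHG6, SNORA24 in SNHG8, SNORA9 in SNHG15 and SNORA26 in DANCR, a noncoding RNA known for keeping progenitor cells undifferentiated. On GRCh37, with the annotation of GENCODE 44, SNHG1 lies at chr11:62619450-62623425 on the minus strand, SNHG5 at chr6:86360209-86388650 on the minus strand, SNHG8 at chr4:119199858-119206471 on the plus strand, SNHG15 at chr7:45022618-45026560 on the minus strand, SNHG16 at chr17:74553809-74667067 on the plus strand, GAS5 at chr1:173827697-173838020 on the minus strand and DANCR at chr4:53578492-53589790 on the plus strand.

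The starts of these genes were searched for a pyrimidine run, which the choice of genes did not use. The 6 genes with an entry in the RefSeq promoter table (GRCh38.p14) are shown 5′ to 3′ from 10 bases before the annotated start to 20 bases from it. Capitals mark the longest run of C or T that touches the 5 bases on either side of the start.
SNHG1: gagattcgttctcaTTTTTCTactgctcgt
SNHG5: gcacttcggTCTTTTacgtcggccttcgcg
SNHG8: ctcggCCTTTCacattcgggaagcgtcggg
SNHG16: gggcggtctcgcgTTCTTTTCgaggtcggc
GAS5: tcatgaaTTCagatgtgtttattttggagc
DANCR: tgcgcgccccgCCCTTgcccagagtcttcc

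The run was 7 bases in SNHG1 (chr11:62855866-62855895, minus strand), 6 in SNHG5 (chr6:85678714-85678743, minus strand), 6 in SNHG8 (chr4:118278752-118278781, plus strand) and 8 in SNHG16 (chr17:76557754-76557783, plus strand). It was 5 bases in DANCR (chr4:52712384-52712413, plus strand) and 3 in GAS5 (chr1:173869026-173869055, minus strand). A run of at least 6 was therefore found in 4 of these 6 genes, beside 22.2% of the 35116 promoters in the table, whose median run was 4. For GAS5 the RefSeq gene start is not the start of the transcript that held most of its FPKM. A transcript start was searched for GAS5 alone, without a share over other transcripts, so it does not add to the 4 of 6. The first 30 bases of that transcript, GAS5-221, on GRCh37 (chr1:173837098-173837127, minus strand, by the annotation) open with a run of 6, in capitals.
GAS5-221: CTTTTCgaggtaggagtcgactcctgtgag

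Levels differed between the genes over a wide range and in an order that was only partly resolved. SNHG16, an RNA first described in neuroblastoma, had the highest mean over the 4 libraries (135 FPKM), followed by GAS5 (117), SNHG8 (104), SNHG6 (99.2), SNHG5 (35.8), SNHG1 (16.1), DANCR (11.2) and SNHG15 (8.68). Among the 11361 gene totals with a mean of at least 1 FPKM, these means stood between the 97.4th percentile for SNHG16 and the 49.95th for SNHG15. Between neighbours in this order, the 4 values of SNHG6 all lay above those of SNHG5, and those of SNHG5 all above those of SNHG1, and each other pair of neighbours overlapped. The host RNAs together summed to 375 and 529 FPKM in IgG RIP, against 530 and 674 FPKM in KIAA1429 RIP, which is 0.127%, 0.168%, 0.157% and 0.198% of all FPKM. Both KIAA1429 RIP sums were above both IgG RIP sums, though replicate 1 of KIAA1429 RIP exceeded replicate 2 of IgG RIP by less than 1 FPKM, and as shares of all FPKM the groups overlapped. The ratio of the group means was 1.33 and, without GAS5, 1.19.

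**Figure D1:**
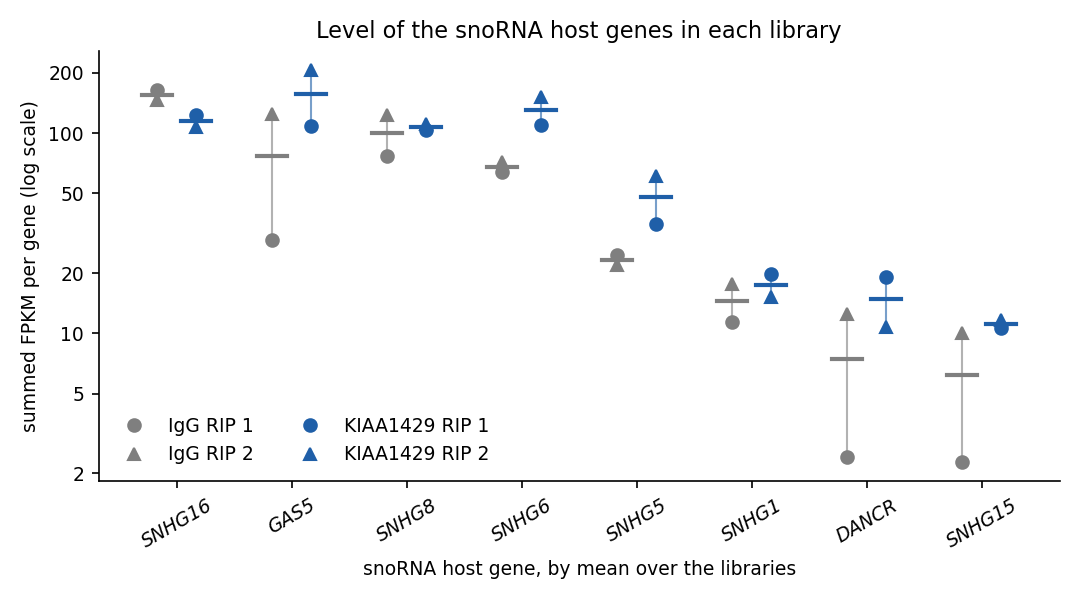
Summed FPKM of each snoRNA host gene (vertical axis, log scale) in the 2 IgG RIP libraries (grey) and the 2 KIAA1429 RIP libraries (blue), with a bar at each group mean and genes ordered by mean. SNHG6 and SNHG5 sit higher in both KIAA1429 RIP libraries, and SNHG16 sits lower in both. All genes but SNHG5 and SNHG16 have their lowest point in replicate 1 of IgG RIP.

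SNHG6 and SNHG5 were the genes whose totals were higher in KIAA1429 RIP by the clearest margin relative to their replicates, and neither passed the adjusted threshold. SNHG6 had 64.0 and 72.2 FPKM in IgG RIP, against 110 and 151 FPKM in KIAA1429 RIP. All KIAA1429 RIP values lay above all IgG RIP values, and the ratio of the means was 1.91. The log2 fold change on the log2(FPKM + 1) scale, where low genes change by less than their FPKM ratio, was 0.91 ± 0.30 (SE, n = 2 per group; limma's unadjusted p = 0.0191, adjusted p = 0.997 over 11361 gene totals). SNHG5, first found at a breakpoint in a lymphoma, had 24.7 and 22.1 FPKM in IgG RIP, against 35.3 and 61.3 FPKM in KIAA1429 RIP. Again the groups did not overlap, and the ratio of the means was 2.07, with replicate 2 of KIAA1429 RIP standing well above replicate 1. Its log2 fold change was 0.97 ± 0.35 (SE, n = 2 per group; limma's unadjusted p = 0.0300, adjusted p = 0.997). Without replicate 2 of KIAA1429 RIP, the log2 fold changes were 0.68 for SNHG6 and 0.58 for SNHG5.

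GAS5, DANCR and SNHG15 had larger log2 fold changes on the log2(FPKM + 1) scale, with larger standard errors. GAS5 had 29.2 and 125 FPKM in IgG RIP, against 108 and 206 FPKM in KIAA1429 RIP. The groups overlapped, since replicate 2 of IgG RIP exceeded replicate 1 of KIAA1429 RIP, and the log2 fold change was 1.29 ± 0.66 (SE, n = 2 per group; limma's unadjusted p = 0.0940, adjusted p = 0.997). DANCR had 2.43 and 12.5 FPKM in IgG RIP, against 19.1 and 10.7 FPKM in KIAA1429 RIP, also with overlap, and a log2 fold change of 1.17 ± 0.68 (SE). SNHG15, known as a short-lived transcript, had 2.29 and 10.1 FPKM in IgG RIP, against 10.6 and 11.7 FPKM in KIAA1429 RIP. Its groups did not overlap, but replicate 2 of IgG RIP lay just under the KIAA1429 RIP values, and the log2 fold change was 1.01 ± 0.61 (SE). Replicate 1 of IgG RIP gave the lowest value of each of these genes, and also of SNHG6, SNHG8 and SNHG1. Without that library the log2 fold changes were 0.26 for GAS5, 0.18 for DANCR and 0.13 for SNHG15, so most of their size was lost with it.

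SNHG16 was the only listed gene of the set with a lower mean in KIAA1429 RIP. It had 164 and 147 FPKM in IgG RIP, against 123 and 107 FPKM in KIAA1429 RIP, without overlap. The log2 fold change was -0.43 ± 0.28 (SE, n = 2 per group; limma's unadjusted p = 0.171, adjusted p = 0.997). SNHG8 had 77.3 and 123 FPKM in IgG RIP, against 104 and 111 FPKM in KIAA1429 RIP, and SNHG1 had 11.4 and 17.7 FPKM in IgG RIP, against 19.9 and 15.2 FPKM in KIAA1429 RIP. Both overlapped, with log2 fold changes of 0.14 ± 0.32 and 0.27 ± 0.37 (SE), and both turned to -0.20 and -0.03, respectively, without replicate 1 of IgG RIP.

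Across the set, 0 of the 8 tested gene totals were called higher or lower in KIAA1429 RIP with a size of log2 fold change above 1 and limma's adjusted p under 0.05, beside 0% of all gene totals. At an unadjusted p under 0.05, 2 of 8 were higher, beside 3.17% of all gene totals, and 0 were lower, beside 1.43%. The first of these counts was 0 with limma without trend, 1 when each gene was taken by its most abundant transcript and 4 with a replicate block. The share of all gene totals at this threshold was not computed for these settings. With a log2 fold change above 1 required as well, 0 of 8 members and 266 of 11361 gene totals were higher in the main fit. With a replicate block these counts were 2 of 8 and 415 of 11361. The groups did not overlap in 3 genes that were higher, beside 16.6% of all gene totals, and in 1 that was lower, beside 15.2%. A log2 fold change above 0 was found in 7 of 8 genes, beside 51.4% of all gene totals. Without replicate 1 of IgG RIP it was found in 5 of 8, beside 6333 of 11361 gene totals. The median log2 fold change was 0.94, beside 0.02 over all gene totals. Without that library the median was 0.16, beside 0.088 over all gene totals. The lowest adjusted p of any gene total was 0.515, and when gene totals were simulated with the real spread, 0 of 200 that were raised by a log2 fold change of 2 were called. With 2 libraries against 2, the smallest p of a two-sided exact permutation test is 0.333. An input library was not analysed here, so how abundant an RNA was in the lysate and how well it was recovered cannot be told apart, nor can more RNA per cell and more cells with the RNA.

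**Figure D2:**
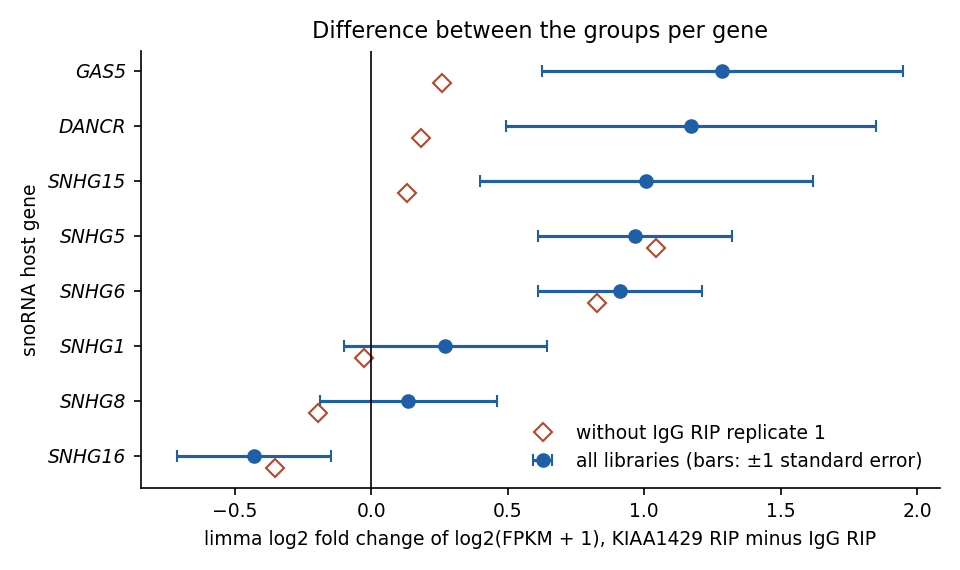
Log2 fold change of log2(FPKM + 1) from limma, KIAA1429 RIP minus IgG RIP (horizontal axis), for each snoRNA host gene, with bars of 1 standard error (circles) and the same value without replicate 1 of IgG RIP (diamonds). The diamonds of GAS5, DANCR and SNHG15 fall to between 0.13 and 0.26, while those of SNHG5 (1.04) and SNHG6 (0.83) stay near the circles.

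The listed transcripts of a gene differed in direction. Of the 38 listed transcripts, 33 had a mean of at least 1 FPKM and were tested, and 0 were called in either direction (limma, adjusted p from 0.531 to 1), beside 0% of all 23375 tested transcripts. At an unadjusted p under 0.05, 4 of the 33 were higher, beside 3.03% of all transcripts, and 1 was lower, beside 2.33%. The higher ones were SNHG15-203, SNHG6-201, GAS5-218 and SNHG5-201. Of these, SNHG15-203, SNHG6-201 and GAS5-218 reached the level for testing through KIAA1429 RIP alone. The count of 4 is therefore not read as support for a difference. The groups did not overlap in 14 that were higher, beside 15.2%, and in 3 that were lower, beside 14.5%. A log2 fold change above 0 was found in 22 of 33, beside 50.4%. Transcripts that reached the level for testing through 1 group alone also stand in these counts. There were 3 transcripts listed at 0 in both IgG RIP libraries and above 0 in both KIAA1429 RIP libraries (2.36% of all transcripts), and 0 with the opposite pattern (2.13%). How reads were divided between overlapping transcripts of a gene is not given in the sources used here, and its part in these values was not tested.

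**Figure D3:**
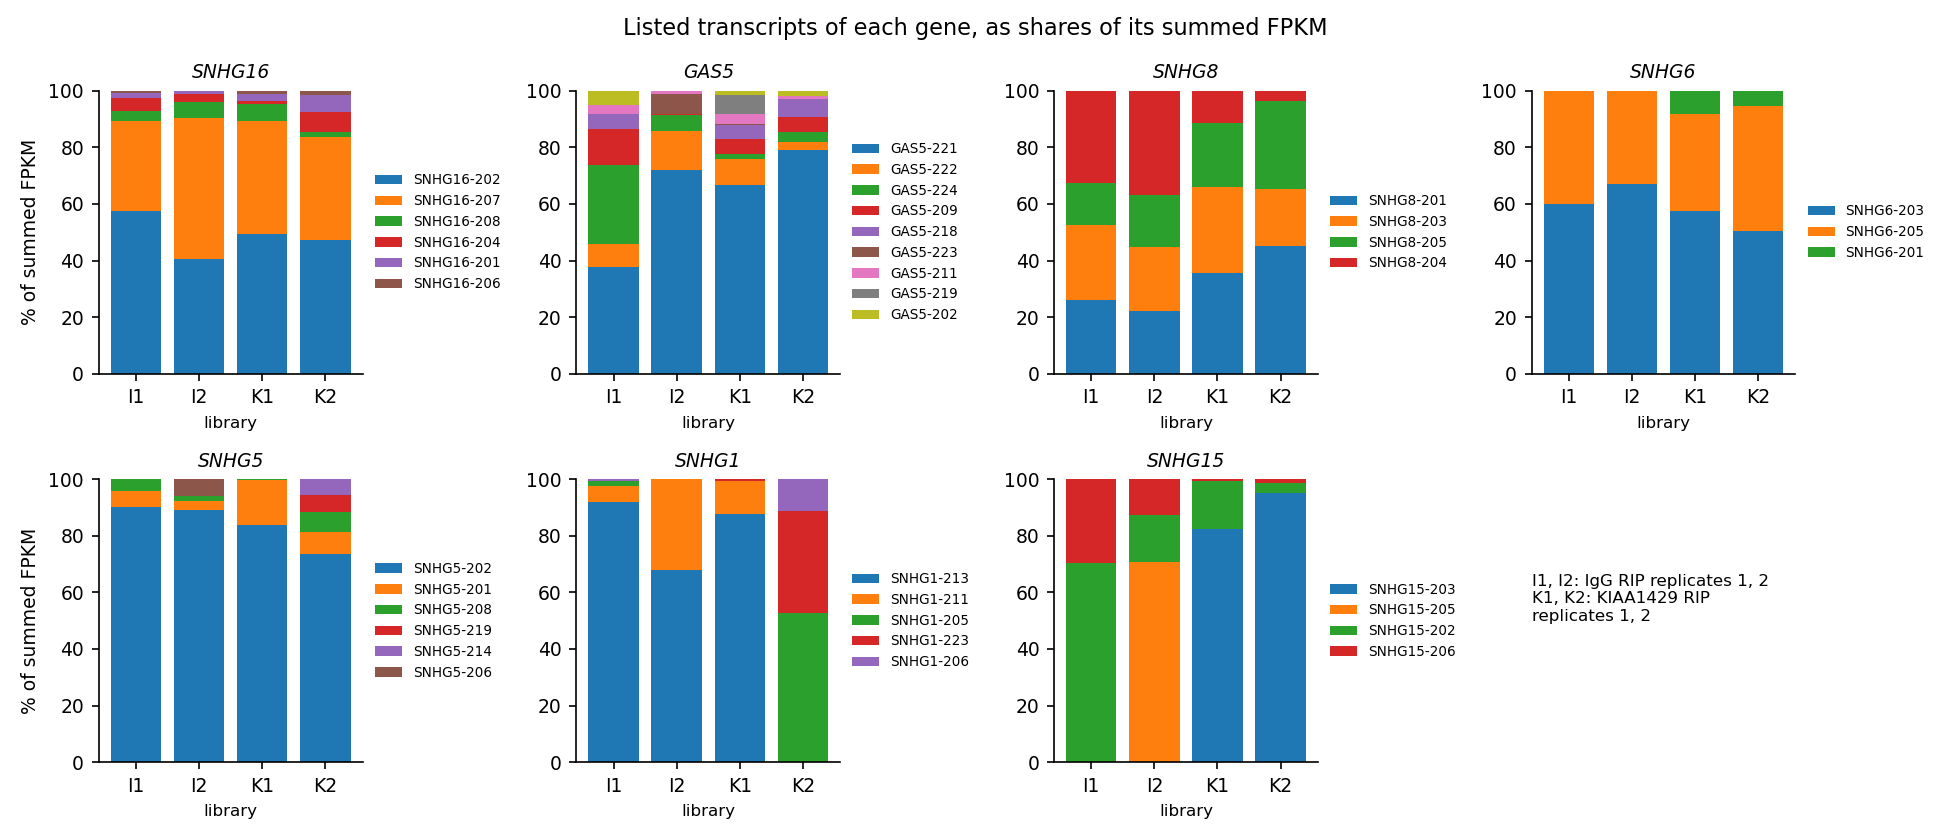
Share of each listed transcript in the summed FPKM of its gene (vertical axis, %) in the IgG RIP (I1, I2) and KIAA1429 RIP (K1, K2) libraries, for the 7 genes with more than 1 listed transcript. SNHG15-203 and SNHG6-201 appear only in the KIAA1429 RIP bars, SNHG8-204 takes a smaller share there, and SNHG1-213 is at 0 in replicate 2 of KIAA1429 RIP.

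In SNHG15, the transcript that held most of the total differed between the groups. SNHG15-203 was listed at 0 in both IgG RIP libraries and had 8.75 and 11.1 FPKM in KIAA1429 RIP, 82.2% and 95.1% of the gene total (limma's unadjusted p = 0.00225, adjusted p = 0.531). This transcript reached the level for testing through KIAA1429 RIP alone, so its p-value is not read as support for a difference. SNHG15-205 had 7.16 FPKM in replicate 2 of IgG RIP, 70.8% of the gene total, and was at 0 in the other libraries. SNHG15-202 had 1.61 and 1.68 FPKM in IgG RIP, against 1.81 and 0.392 FPKM in KIAA1429 RIP, with overlap. SNHG15-206 had 0.676 and 1.27 FPKM in IgG RIP, against 0.0851 and 0.175 FPKM in KIAA1429 RIP, lower without overlap and below the level for testing. In replicate 1 of IgG RIP, SNHG15-202 and SNHG15-206 made up the whole total. SNHG15-203, which led in KIAA1429 RIP, and SNHG15-205, which led in replicate 2 of IgG RIP, differ by the exon between 45025620 and 45025696 that SNHG15-203 includes and SNHG15-205 skips, and by where they start and end.

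The junctions that tell them apart are shown because only reads across them, or within that exon, separate these transcripts where they overlap. They lie on the minus strand of chromosome 7 of GRCh37, with 15 bases of the upstream exon in lower case and 15 of the next exon in capitals. The first joins 45025620 to 45024025, the second 45026124 to 45025696 and the third, which skips the exon, 45026124 to 45024025.
SNHG15-203, exon to next: ttgcaagatgccccgGCCAGGAATAGTTGC
SNHG15-203 and SNHG15-206, into the exon: cattcctgagcccagGTGGGAGCCGTGGCT
SNHG15-205, exon skipped: cattcctgagcccagGCCAGGAATAGTTGC

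In SNHG8, overlapping totals were made up of lower values of SNHG8-204 and higher values of other transcripts in KIAA1429 RIP. SNHG8-204 had 25.3 and 45.3 FPKM in IgG RIP, against 11.8 and 4.26 FPKM in KIAA1429 RIP, with both KIAA1429 RIP values below both IgG RIP values (log2 fold change -2.09 ± 0.60, SE, n = 2 per group; limma's unadjusted p = 0.0189, adjusted p = 0.829). Its share of the gene total was 32.8% and 36.8% in IgG RIP, against 11.3% and 3.85% in KIAA1429 RIP. SNHG8-201 had 20.2 and 27.3 FPKM in IgG RIP, against 37 and 50.03 FPKM in KIAA1429 RIP. SNHG8-205 had 11.3 and 22.4 FPKM in IgG RIP, against 23.7 and 34.3 FPKM in KIAA1429 RIP. Both were higher in KIAA1429 RIP without overlap, and SNHG8-203, at 20.5 and 28.0 FPKM in IgG RIP, against 31.4 and 22.1 FPKM in KIAA1429 RIP, overlapped. Without SNHG8-204, a choice made after its values were seen, the SNHG8 total was 52.0 and 77.7 FPKM in IgG RIP, against 92.1 and 106 FPKM in KIAA1429 RIP, a difference of means of 34.4 FPKM in place of 7.11 FPKM.

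SNHG8-204 is distinguished among the listed SNHG8 transcripts by an intron that it keeps. Transcripts of other host genes that keep introns by the annotation went both ways. SNHG5-201, SNHG16-201 and GAS5-211 keep at least 1 and were higher in KIAA1429 RIP without overlap. SNHG15-206 keeps introns by the annotation and was lower without overlap. In the files, however, it starts at 45025061, inside the intron between 45024025 and 45025620. Its values therefore do not cover that intron whole. The other intron-keeping transcripts, SNHG16-202 among them, overlapped between the groups. SNHG16-206, also among them, ends in the files at 74559835, inside the intron between 74559564 and 74560055. In SNHG8-201 and SNHG8-205 the exon that ends at 119200292 is joined to the exon that starts at 119200544, on the plus strand of chromosome 4 of GRCh37, whereas SNHG8-204 reads on through the 251 bases between them. The sequences are the last 15 bases of that exon in lower case and the next 15 bases of the transcript in capitals, where the retained intron opens with the GT of its donor site.
SNHG8-201 and SNHG8-205, spliced: agtttgagccagatgGAAGCTGAGCTGAAC
SNHG8-204, retained: agtttgagccagatgGTGAGTAATAACCTG

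SNHG6 had a higher mean in KIAA1429 RIP in each of its 3 listed transcripts. SNHG6-203, the most abundant, had 38.3 and 48.4 FPKM in IgG RIP, against 63.3 and 76.2 FPKM in KIAA1429 RIP, and SNHG6-205 had 25.7 and 23.7 FPKM in IgG RIP, against 37.7 and 66.6 FPKM in KIAA1429 RIP. SNHG6-201 was listed at 0 in both IgG RIP libraries and at 8.92 and 8.09 FPKM in KIAA1429 RIP (limma's unadjusted p = 0.00312, adjusted p = 0.585). It too reached the level for testing through KIAA1429 RIP alone, so its p-value is not read as support for a difference. In each transcript the groups did not overlap. Without SNHG6-201, a choice made after its values were seen, the total was 64.0 and 72.2 FPKM in IgG RIP, against 101 and 143 FPKM in KIAA1429 RIP. The difference of the means was then 53.8 FPKM in place of 62.3 FPKM, so that the 2 transcripts listed above 0 in every library carried most of it.

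**Figure D4:**
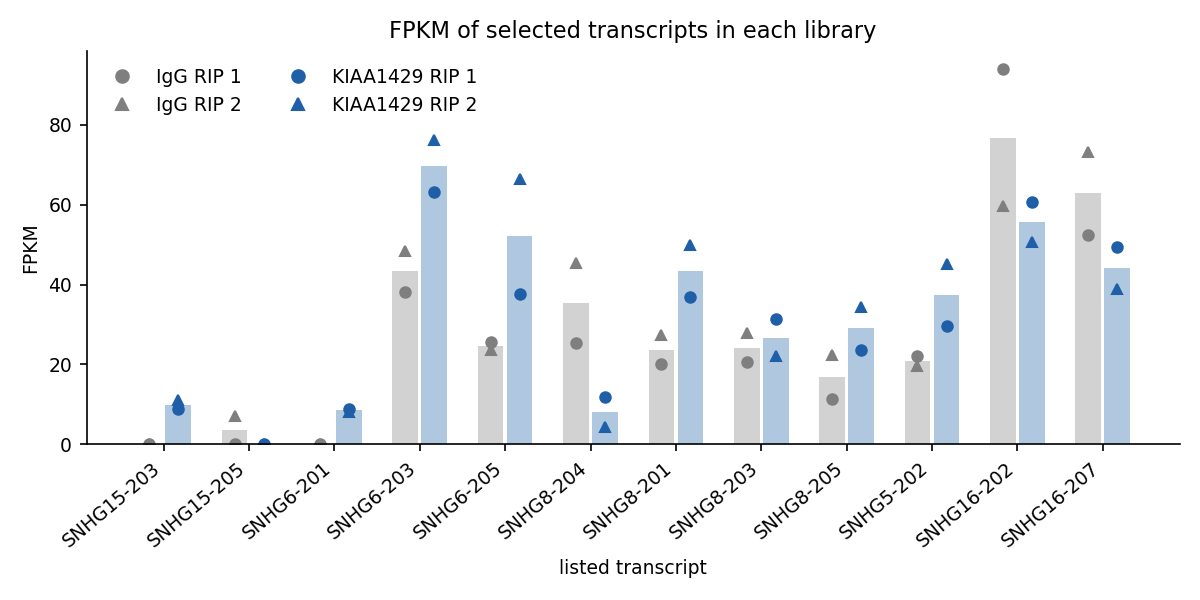
FPKM of selected listed transcripts (vertical axis) in IgG RIP (grey) and KIAA1429 RIP (blue), with points for the libraries and bars for the group means. SNHG15-203 and SNHG6-201 are at 0 in both IgG RIP libraries, and SNHG8-204 has its lower values and SNHG8-201 its higher values in KIAA1429 RIP.

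SNHG5 was carried by SNHG5-202, with 22.2 and 19.7 FPKM in IgG RIP, against 29.5 and 45.1 FPKM in KIAA1429 RIP. Its share of the gene total was 90.0% and 89.1% in IgG RIP, against 83.6% and 73.6% in KIAA1429 RIP. SNHG5-201 had 1.44 and 0.715 FPKM in IgG RIP, against 5.67 and 4.71 FPKM in KIAA1429 RIP (limma's unadjusted p = 0.0419, adjusted p = 0.879). Neither transcript overlapped between the groups. SNHG5-214 and SNHG5-219 were above 0 only in replicate 2 of KIAA1429 RIP, at 3.49 and 3.66 FPKM, and SNHG5-206 only in replicate 2 of IgG RIP, at 1.31 FPKM.

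GAS5 was carried by GAS5-221, at 11 and 89.7 FPKM in IgG RIP, against 72.0 and 163 FPKM in KIAA1429 RIP, between 37.6% and 79.1% of the gene total. Most of the spread of the GAS5 total between the IgG RIP replicates was that of this transcript. GAS5-218 had 1.57 and 0.232 FPKM in IgG RIP, against 5.04 and 13 FPKM in KIAA1429 RIP (limma's unadjusted p = 0.0254, adjusted p = 0.844), and GAS5-209 had 3.72 and 0.194 FPKM in IgG RIP, against 6.03 and 11.1 FPKM in KIAA1429 RIP. Both were higher without overlap. GAS5-218 had a mean of 0.899 FPKM in IgG RIP and reached the level for testing through KIAA1429 RIP alone. Its p-value is therefore not read as support for a difference. GAS5-224, at 8.14 and 7.23 FPKM in IgG RIP, against 1.62 and 6.63 FPKM in KIAA1429 RIP, was lower without overlap.

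The GAS5 transcripts also differ in a known choice between a longer and a shorter form of one exon, which was compared because 7 of the 9 listed transcripts carry one form or the other. GAS5-219 and GAS5-223 carry neither junction. On the minus strand of chromosome 1 of GRCh37 the longer form ends at 173834609 and the shorter at 173834648, and both are joined to 173834420. The last 15 bases of the exon are in lower case and the first 15 of the next are in capitals.
GAS5-211, GAS5-221 and GAS5-224, longer: tcataccttttaaagGTATGGAGAGTCGGC
GAS5-202, GAS5-209, GAS5-218 and GAS5-222, shorter: ggatgacttgcttggGTATGGAGAGTCGGC

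The longer form summed to 20.1 and 98.2 FPKM in IgG RIP, against 77.3 and 172 FPKM in KIAA1429 RIP. The shorter form summed to 9.14 and 17.4 FPKM in IgG RIP, against 22.8 and 34.1 FPKM in KIAA1429 RIP. Its share of both forms was 31.3% and 15.1% in IgG RIP, against 22.7% and 16.5% in KIAA1429 RIP, so both KIAA1429 RIP shares fell between the IgG RIP shares.

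SNHG16 was made up mainly of SNHG16-202 and SNHG16-207. SNHG16-202 had 93.9 and 59.8 FPKM in IgG RIP, against 60.6 and 50.8 FPKM in KIAA1429 RIP, which overlapped, and its share of the gene total was between 40.6% and 57.3%. SNHG16-207 had 52.6 and 73.2 FPKM in IgG RIP, against 49.5 and 38.9 FPKM in KIAA1429 RIP, which were lower without overlap. The junctions shown part these 2 transcripts after the same exon end, 74553939 on the plus strand of chromosome 17 of GRCh37, with the next exon, in capitals, starting at 74557370 in SNHG16-202 and at 74555027 in SNHG16-207.
SNHG16-202: cctttagtgatgatgGTGCAGTCAGCCTCA
SNHG16-207: cctttagtgatgatgATTAAAGGTGGTGGC

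SNHG1 had overlapping totals whose transcripts differed between the KIAA1429 RIP replicates. SNHG1-213 had 10.5 and 12 FPKM in IgG RIP, against 17.4 and 0 FPKM in KIAA1429 RIP. SNHG1-205 had 0.184 and 0 FPKM in IgG RIP, against 0 and 7.97 FPKM in KIAA1429 RIP, and SNHG1-223 was at 0 in both IgG RIP libraries and at 0.108 and 5.49 FPKM in KIAA1429 RIP. In replicate 2 of KIAA1429 RIP the gene total was thus held by transcripts that were at or near 0 in the other libraries. DANCR had a single listed transcript, DANCR-201, whose values are those of the gene total.

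The GGAC motif, a sequence in which m6A is often placed, was searched on the transcript strand of the spliced sequences from GENCODE 44 on GRCh37. It was found in 35 of the 38 host transcripts (92.1%), beside 96.3% of the 33938 listed transcripts with a sequence, and the 3 without it were the SNHG6 transcripts, of 374 to 639 bases. Among the 5983 listed transcripts in that length range, 89.5% held it. The median number per kilobase was 3.86 in the host transcripts, 3.78 in all listed transcripts and 3.16 in those of the type lincRNA. No match says only that these letters were not in these sequences.

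Some host genes overlap listed genes on the opposite strand, and whether reads were counted by strand is not given in the sources used here. PRSS12, which overlaps SNHG8, and ZBTB37 and ERVMER34-1, which overlap GAS5 and DANCR, had at most 1.74, 3.15 and 1.91 FPKM in a library.

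Other genes of the pathway were compared by lists, whose counts stand beside 16.6% of all gene totals that were higher and 15.2% that were lower without overlap, and 3.17% that were higher and 1.43% that were lower at an unadjusted p under 0.05. Of 16 other noncoding snoRNA hosts, 11 were listed and tested, and 0 were called in either direction (limma, lowest adjusted p = 0.885). The groups did not overlap in 2 that were higher and 3 that were lower, 2 were lower and 0 higher at an unadjusted p under 0.05, and the median log2 fold change was 0.26, with values from -2.00 to 2.27. That median turned to -0.088 without replicate 2 of KIAA1429 RIP, beside 0.062 over all gene totals. It turned to -0.73 when each gene was taken by its most abundant transcript, beside 0.026 over all genes. SNHG25 had 33.3 and 52.8 FPKM in IgG RIP, against 12.5 and 7.51 FPKM in KIAA1429 RIP (log2 fold change -2.00), and SNHG20 had 33.6 and 102 FPKM in IgG RIP, against 17.3 and 21.2 FPKM in KIAA1429 RIP (log2 fold change -1.57). The log2 fold change of SNHG20 was -0.78 without replicate 2 of IgG RIP and -2.36 without replicate 1, and that of SNHG25 was -1.15 by its most abundant transcript. SNHG25 and SNHG20 lay lower in KIAA1429 RIP without overlap, while C6orf48, the most abundant of the list, had 95.1 and 187 FPKM in IgG RIP, against 162 and 233 FPKM in KIAA1429 RIP, with overlap. Noncoding hosts outside the set thus lay on both sides of 0.

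Protein-coding snoRNA hosts, many of them ribosomal protein and translation factor genes, lay mostly above 0. Of 47 in the list, 45 were tested and 0 were called. The groups did not overlap in 19 that were higher (16.6% of all gene totals) and 0 that were lower (15.2%), 9 were higher and 0 lower at an unadjusted p under 0.05, and the median log2 fold change was 0.49, with 38 genes above 0. Over all gene totals, 51.4% were above 0. With quantile normalization the median of the list was 0.24 and 29 of its genes were above 0, beside -0.028 and 5436 of 11361 over all gene totals. The most abundant were RPS2, at 676 and 1263 FPKM in IgG RIP, against 1071 and 1625 FPKM in KIAA1429 RIP, EEF2, the elongation factor that moves the ribosome along, with a log2 fold change of 0.01 that turned to -0.31 with quantile normalization, and RPL3, with 0.39. Each of these 3 overlapped between the groups.

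Proteins that bind or assemble snoRNAs and factors of nonsense-mediated decay had 0 calls each. Of 15 tested snoRNP genes, the groups did not overlap in 4 that were higher (16.6% of all gene totals) and 0 that were lower (15.2%), 2 were higher and 0 lower at an unadjusted p under 0.05, and the median log2 fold change was 0.39, or -0.025 without replicate 2 of IgG RIP. Among the most abundant, NHP2, a core protein of box H/ACA particles, had 85.3 and 78.2 FPKM in IgG RIP, against 107 and 108 FPKM in KIAA1429 RIP, without overlap. FBL, the methyltransferase of box C/D particles, and SNU13, which binds the box C/D fold, overlapped, with log2 fold changes of -0.11 and 0.47. Of the 10 decay factors, 1 was higher (16.6% of all gene totals) and 4 were lower (15.2%) without overlap, 0 passed an unadjusted p of 0.05, and the median was -0.16, or 0.069 without replicate 1 of IgG RIP. Among the most abundant, SMG1 and SMG5 had log2 fold changes of -0.27 and -0.42. The median over all gene totals was 0.02, or 0.088 without replicate 1 and -0.080 without replicate 2 of IgG RIP.

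**Figure D5:**
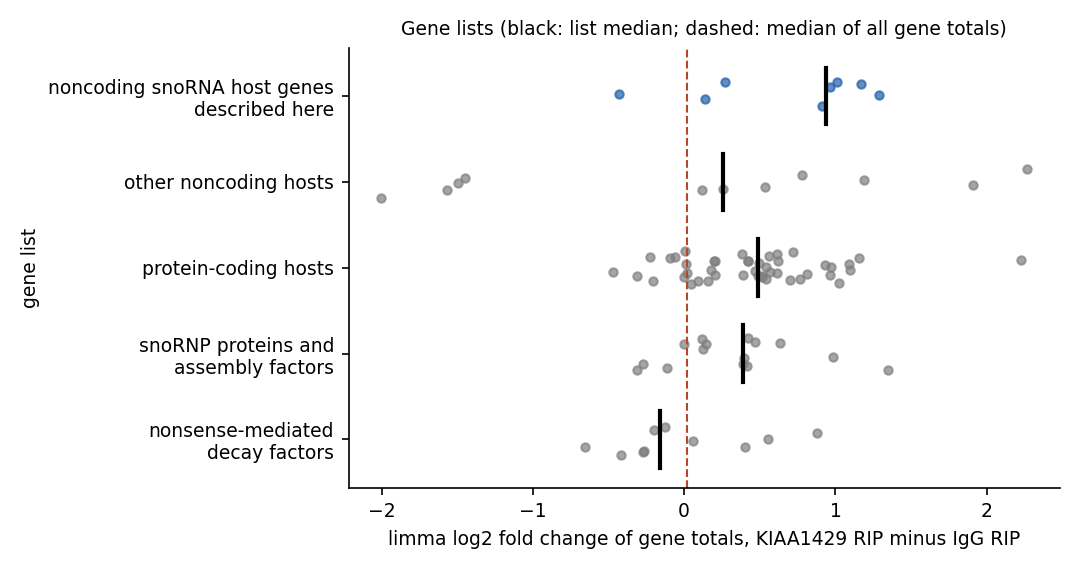
Log2 fold change of gene totals from limma, KIAA1429 RIP minus IgG RIP (horizontal axis), with 1 point per tested gene in each list, scattered vertically for legibility, a black bar at the list median and a dashed line at the median of all gene totals (0.02). The noncoding hosts described here have a median of 0.94, the other noncoding hosts spread from -2.00 to 2.27, and the decay factors have a median of -0.16.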

How the data were processed

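HCCLM3 cells were used for RIP-seq with a KIAA1429 antibody or normal IgG (2 replicates each), and the labels do not say whether replicates came from separate cultures, so p-values measure only the spread between these libraries. The authors selected poly(A) RNA and deposited an FPKM value per transcript and library. The paper's methods name HISAT2 and GRCh37/hg19, the submitters' processing notes name Bowtie2 2.1.0, and the tool that made the FPKM values and the annotation release are not given in the sources used here. Listed transcripts had a higher group mean of at least 0.50 FPKM. Depth is unknown, so no counting interval is given.

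FPKM values were summed per gene name. Features with a mean of at least 1 FPKM (11361 gene totals, 23375 transcripts) were compared on the log2(FPKM + 1) scale by the two-sided test of limma 3.58.1 (R 4.3.3, eBayes with trend), with p-values adjusted by Benjamini-Hochberg over all features tested. A call needed a size of log2 fold change above 1 and adjusted p under 0.05. The authors used these thresholds with DESeq, which needs counts. Other values were computed in Python 3.11.15 with numpy 2.4.6 and pandas 2.3.3. The members and gene lists were chosen with earlier results of these data known. Named genes were the members, VIRMA, genes overlapping a member and the 3 most abundant genes of each other list, except 2 genes that are not reported here. Some genes stand in more than 1 list, and lists hold older and newer names of a gene.

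In libraries simulated with the real spread, 0 of 200 gene totals raised by 2 and 180 of 200 raised by 4 on the log2 scale were recovered, with 1 and 9 false calls, and 0 of 200 transcripts raised by 4 were. Alternatives were pseudocounts of 0.1 and 0.01, no filter and a filter at 5 FPKM, median scaling, quantile normalization, a replicate block, no trend, the most abundant transcript in place of the sum, and each library left out.

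Transcript names, exons and sequences came from GENCODE 44 mapped to GRCh37, which held all 38 member transcripts, 13 of them with the same bounds as in the files. Start windows and snoRNA genes came from RefSeq (GRCh38.p14), in which 13 of 15 other noncoding hosts and 45 of 45 protein-coding hosts found there held a snoRNA gene.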

Additional observations from a re-analysis of the deposited data

How the results depend on the processing

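No member gene total or transcript was called under any alternative. With the replicate number as a block, 12 of all gene totals were called higher and 1 lower, none of them a member, and the lowest adjusted p of a member gene total was 0.127 (GAS5). The labels do not say whether same-numbered libraries share more than their number. The correlation of their deviations was 0.19 across gene totals and 0.03 across transcripts. With 2 pairs, these values cannot settle whether the libraries were paired. With all libraries kept, the number of member gene totals higher at limma's unadjusted p under 0.05 was between 0 and 4 of 8. It was 2 of 8 in the main fit, beside 3.17% of all gene totals. The share of all gene totals was not computed under the alternatives, so the range is not read as a result. Of 664 values of single genes and transcripts under an alternative, 627 kept their direction. The replicate block, the fit without trend and the changed filters leave a log2 fold change as it was. Values under those settings could not turn, so the 627 do not measure stability.

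When the most abundant transcript stood in for the sum, the log2 fold change turned to -1.51 for SNHG1, -0.50 for VIRMA, -0.033 for EEF2, 0.26 for FBL and 0.020 for SMG1. EEF2 was -0.013 with median scaling and -0.31 with quantile normalization, and PRSS12 was -0.017 with quantile normalization. When the most abundant transcript was chosen in IgG RIP alone, it was SNHG15-205 (35.4% of the gene total in IgG RIP and 0% in KIAA1429 RIP) and SNHG8-204 (34.8% and 7.59%) in place of SNHG15-203 and SNHG8-201. Without SNHG8-204, chosen after seeing the data, the SNHG8 difference of means was 34.4 FPKM.

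Leaving out each library in turn, log2 fold changes that turned or reached 0 ranged from -0.027 to 0.57 for SNHG1, -0.20 to 0.47 for SNHG8, -0.30 to 0.32 for EEF2, -0.26 to 0.041 for FBL, -0.34 to 0.56 for PRSS12, -0.13 to 1.07 for SNU13, -0.28 to 0.50 for VIRMA and -0.30 to 0.24 for ZBTB37. Among transcripts they ranged from -0.10 to 2.96 for GAS5-219, -1.04 to 1.36 for GAS5-222, -2.89 to 0.40 for GAS5-223, -0.12 to 3.04 for SNHG1-205, -1.87 to 0.17 for SNHG1-211, -3.61 to 0.59 for SNHG1-213, -0.93 to 0.084 for SNHG15-202, -3.03 to 0 for SNHG15-205, -1.44 to 0.40 for SNHG16-204, -0.030 to 1.31 for SNHG16-206, -1.47 to 0.084 for SNHG16-208, -0.58 to 1.67 for SNHG5-208 and -0.11 to 0.38 for SNHG8-203. A group left with 1 library was taken to vary like the other. The cause of these changes was not tested.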
